A study of Mus musculus with 9 samples.

Results

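The genes described are the keratins of mouse epidermis: every gene of the epidermal expression table whose symbol is Krt followed by a number and at most 1 letter. This rule found 50 of 36442 genes, of which 28 encode type I and 22 encode type II keratins. RNA was sequenced from keratinocytes that had been sorted from adult skin, in 2 libraries of the Mi2 group and 2 libraries of the WT group. Mi2 refers to Mi-2β, the chromatin remodelling ATPase encoded by Chd4, and in the table the Mi2 columns are named as knock-outs. The labels give neither the allele, nor a Cre driver, nor the strain, exact age or treatment of either group. They also do not say whether the 2 libraries of a group came from different mice, so p-values measure the spread between these libraries alone. Lymph node samples of the same study were not used.

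Keratins are the intermediate filament proteins of epithelial cells. A filament forms only when a type I keratin pairs with a type II keratin, and the pair in use marks the kind and the stage of an epithelial cell. In interfollicular epidermis, dividing basal cells use Krt5 with Krt14, and Krt15 is a second type I partner there and in the hair follicle bulge. Cells that leave the basal layer switch to Krt1 with Krt10, and wounded or hyperproliferative epidermis adds Krt6a, Krt6b, Krt16 and Krt17. Krt8 with Krt18 is the pair of single-layered epithelia, and further sets are particular to the sheaths and the shaft of hair.

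The libraries held 7662946 and 5682391 reads over genes in Mi2 and 7002100 and 8913804 in WT. Values are reads normalized by the authors with 1 factor per library. Genes of the mitochondrial genome made up 29.7% and 15.5% of the Mi2 reads, against 13.8% and 12.9% in WT, with the highest share in Mi2 replicate 1. Chd4 had 734 and 1207 normalized reads in Mi2, against 1607 and 1942 in WT (log2 change -0.91, SE 0.272, limma adjusted p = 0.0456). The call for Chd4 was lost in 5 of 12 alternative settings, and without Mi2 replicate 1 its log2 change was -0.55 (limma adjusted p = 0.0995). The 11 keratinocyte markers that are not keratins all had reads, and their summed level was 102227 and 75318 normalized reads in Mi2, against 87327 and 83866 in WT. The sum hides opposite changes. No marker overlapped between groups: 9 were higher in Mi2, and Perp and Col17a1 were lower. Of all genes tested, 70.7% did not overlap. Epcam, Cdh3 and Sfn were higher at a limma adjusted p under 0.05, and the other 8 were not called.

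Keratin RNA was abundant in all 4 libraries. Krt5, Krt14, Krt15, Krt10 and Krt1 stood among the 50 genes with the most reads. Keratins together made up 3.09% and 3.39% of all reads in Mi2, against 4.11% and 4.12% in WT, a difference of -0.871 percentage points between the means of 3.24% ± 0.215 and 4.11% ± 0.00794 (SD, n = 2 each). The exact permutation test gave p = 0.333, two-sided, which is the smallest value that 2 libraries against 2 can give. With mitochondrial reads left out of the total, the shares were 4.4% and 4.02% in Mi2 and 4.76% and 4.73% in WT.

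Of the 50 genes, 41 had at least 1 read, 9 had none, and 23 reached the mean of 10 normalized reads needed for the test. A gene was called when its Benjamini-Hochberg adjusted p from limma, over all 14461 genes tested, was under 0.05. Among the 23 tested keratins, 9 rose in Mi2, 7 fell and 7 were not called. The 16 called keratins are 69.6% of those tested, against 28.2% of all genes tested. Rises made up 15.1% and falls 13.1% of all genes tested. The Mi2 and WT values did not overlap for 21 of 23 keratins, or 91.3%, against 70.7% of all genes. The median log2 change was 0.92 among keratins and -0.03 among all genes tested, and the median absolute change was 2.31 and 0.59. These 23 are the keratins that passed the filter, not all members of the family. The filter used the mean over both groups. Krt8, Krt18 and Krt73, with no WT read, and Krt2, Krt19, Krt75 and Krt76, with WT means under 10, passed through Mi2 alone. Krt32, with a Mi2 mean under 10, passed through WT alone. The shares and medians among keratins therefore draw partly on genes that entered because 1 group was high.

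**Figure D1:**
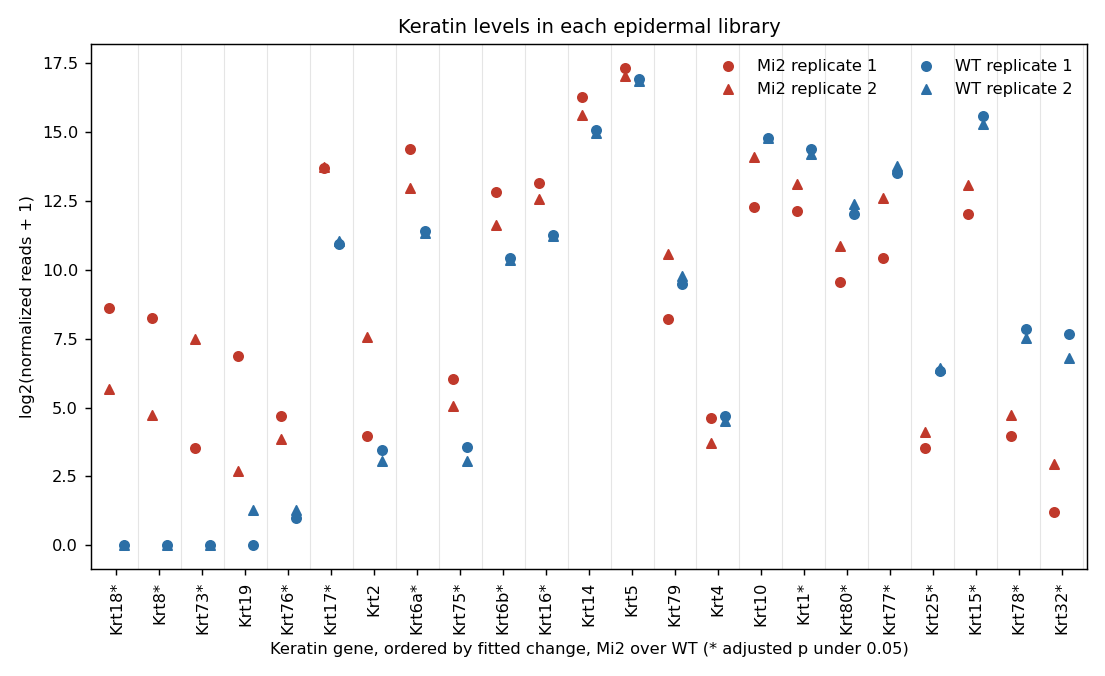
Level of each of the 23 tested keratins as log2(normalized reads + 1), with genes ordered from the most positive to the most negative fitted change. Red marks are Mi2 and blue marks WT, circles are replicate 1 and triangles replicate 2, and an asterisk marks an adjusted p under 0.05. The 9 called rises and 7 called falls have Mi2 marks wholly on one side of the WT marks, while Krt79 and Krt4 overlap.

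The 4 wound and stress keratins all rose in Mi2. Krt17, a type I keratin induced at wound edges and present in hair follicles, had 13321 and 13623 normalized reads in Mi2, against 1957 and 2143 in WT. Both Mi2 libraries were high and nearly equal (log2 change 2.72, SE 0.217, limma adjusted p = 8.4e-04). Krt16, a type I keratin of activated keratinocytes, had 9205 and 6059 normalized reads in Mi2, against 2487 and 2402 in WT (log2 change 1.61, SE 0.261, limma adjusted p = 0.00670).

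Krt6a, a type II partner of Krt16 and Krt17, had 21657 and 8056 normalized reads in Mi2, against 2750 and 2568 in WT. The groups were apart, and Mi2 replicate 1 was the higher of the Mi2 pair (log2 change 2.31, SE 0.438, limma adjusted p = 0.0110). Its neighbour Krt6b had 7289 and 3159 normalized reads in Mi2, against 1368 and 1320 in WT (log2 change 1.84, SE 0.373, limma adjusted p = 0.0136). Without Mi2 replicate 1 the log2 changes were 1.60 for Krt6a and 1.23 for Krt6b, and without Mi2 replicate 2 they were 3.03 and 2.44. All 4 calls held in each of the 12 alternative settings.

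These genes resemble one another in sequence, so their counts are not fully separate. Of the 50-base windows in the longest annotated transcript of each gene, 45.5% in Krt6a and 50.1% in Krt6b also occurred in another gene. Krt6a and Krt6b chiefly shared them with each other. In Krt16 the share was 37.6%, of which Gm11597 alone accounted for 25.2% of windows. Gm11597 had 388 and 290 reads in Mi2, against 3 and 25 in WT. In Krt17 only 4.0% of windows were shared. How the counting treated reads that match several genes is not given in the sources used here.

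The basal keratins moved apart from one another. Krt15 fell, while Krt5 and Krt14, the main basal pair, were not called. Krt15 had 4202 and 8781 normalized reads in Mi2, against 49093 and 40508 in WT. Both Mi2 libraries were far below both WT libraries (log2 change -2.88, SE 0.403, limma adjusted p = 0.00434), and the log2 change was -2.34 without Mi2 replicate 1 and -3.41 without Mi2 replicate 2.

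Krt14 had 79944 and 50895 normalized reads in Mi2, against 35020 and 32291 in WT. The groups did not overlap, yet Krt14 was not called (log2 change 0.92, 95% interval -0.06 to 1.91, limma adjusted p = 0.136). DESeq2 on the recovered whole reads called it higher, at a log2 change of 0.97. Krt5 had 165634 and 135266 normalized reads in Mi2, against 125451 and 117800 in WT, and its interval spanned 0 (log2 change 0.30, 95% interval -0.99 to 1.59, limma adjusted p = 0.704). Per kilobase of annotated exon, no keratin had a higher level than Krt5 in any library.

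Ratios within a library do not depend on the scaling between libraries. Per kilobase of annotated exon, the Krt15 to Krt14 ratio was 0.0523 and 0.172 in Mi2, against 1.39 and 1.25 in WT. The Krt5 to Krt14 ratio on the same scale was 1.66 and 2.13 in Mi2, against 2.87 and 2.92 in WT. Neither ratio overlapped between groups, and each gave p = 0.333, two-sided, the smallest that the exact permutation test allows here. Counts of Krt14 carry 14.4% of windows shared with other genes, and those of Krt15 carry 0.666%.

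Keratins of the suprabasal and cornifying layers were lower or not called: of 6 tested, 4 fell and none rose at the limma threshold. At an unadjusted p under 0.05, 1 was higher and 5 were lower. Krt1, the type II keratin of early differentiation, had 4503 and 8896 normalized reads in Mi2, against 21522 and 18749 in WT. Both Mi2 libraries lay below WT (log2 change -1.67, SE 0.367, limma adjusted p = 0.0175), but without WT replicate 1 the call was lost at a log2 change of -1.57. Krt10, its type I partner, had 4945 and 17707 normalized reads in Mi2, against 28432 and 28167 in WT. It was not called (log2 change -1.60, 95% interval -2.92 to -0.27, limma adjusted p = 0.0717). Its log2 change was -0.68 without Mi2 replicate 1 and -2.52 without Mi2 replicate 2. Scaling without keratins and mitochondrial genes called it lower, at a log2 change of -1.84.

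Krt77, a type II keratin of suprabasal cells and sweat ducts, had 1381 and 6239 normalized reads in Mi2, against 11823 and 13855 in WT. Its fall had the least support of those called (log2 change -2.12, SE 0.621, limma adjusted p = 0.0420), since 6 of 12 alternative settings lost the call. Krt80 had 750 and 1889 normalized reads in Mi2, against 4201 and 5368 in WT (log2 change -2.0, SE 0.412, limma adjusted p = 0.0143). Krt78 had 14.6 and 25.9 normalized reads in Mi2, against 232 and 184 in WT (log2 change -3.34, SE 0.360, limma adjusted p = 0.00186). The calls for Krt80 and Krt78, both type II keratins, held in all 12 alternative settings.

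Krt2, the type II keratin of the upper layers in ear, tail and sole skin, differed from the others. It had 14.6 and 188 normalized reads in Mi2, against 9.92 and 7.26 in WT. The values did not overlap, but Mi2 replicate 2 held nearly all Mi2 reads and limma did not call it (log2 change 2.51, 95% interval 0.06 to 4.97, limma adjusted p = 0.111). edgeR and DESeq2 called it higher, at log2 changes of 3.58 and 3.57. The log2 change was 4.31 without Mi2 replicate 1, and 0.72 without Mi2 replicate 2. Krt9, a keratin of palm and sole skin, had 1 read in all.

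As shares of keratin reads, basal keratins took 79.5% and 74.2% in Mi2, against 73.4% and 71.5% in WT. Suprabasal keratins took 3.70% and 13.3% in Mi2, against 23.2% and 24.9% in WT, and the lowest value was in Mi2 replicate 1. Wound and stress keratins took 16.4% and 11.8% in Mi2, against 3.0% and 3.16% in WT. Within the basal set, Krt15 took 1.34% and 3.34% in Mi2, against 17.2% and 15.2% in WT. Longer genes give more reads, so these are shares of reads and not of transcripts. They are shares of 1 total, so a higher share of one set lowers the others. In bulk libraries, fewer cells of a type and less RNA per cell cannot be told apart.

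**Figure D2:**
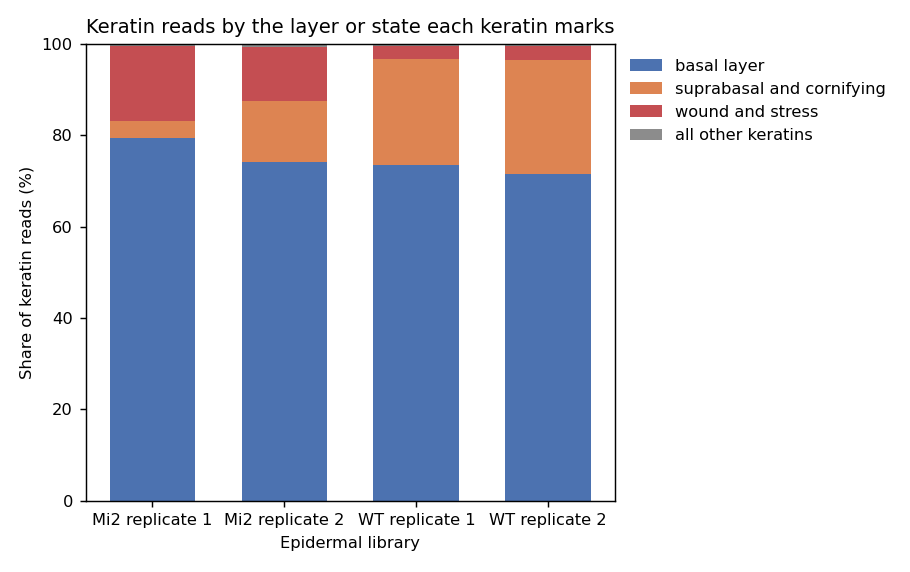
Share of keratin reads, in percent, taken by each functional set of keratins in the 2 Mi2 and the 2 WT libraries. Wound and stress keratins fill 16.4% and 11.8% of the Mi2 bars and 3.0% and 3.16% of the WT bars, and suprabasal keratins fill 3.70% and 13.3% against 23.2% and 24.9%.

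Per kilobase of annotated exon, the mean order in Mi2 was Krt5 at 68480, Krt14 at 37213, Krt17 at 8686, Krt6a at 6144, Krt10 at 5358, Krt16 at 4877 and Krt15 at 3674 normalized reads per kilobase. In WT it was Krt5 at 55360, Krt15 at 25354, Krt14 at 19144, Krt10 at 13387, Krt1 at 4561 and Krt77 at 4381. Krt15 therefore stood in place 7 in Mi2 and 2 in WT, and Krt17 in place 3 in Mi2 and 8 in WT. Exon length counts every annotated exon of a gene, so neighbouring places are approximate.

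The partner types were compared as sums per kilobase of exon. Type II over type I keratins gave 1.38 and 1.3 in Mi2, against 1.07 and 1.13 in WT. The groups did not overlap, and the difference between the means of 0.234 gave p = 0.333 in the exact permutation test, two-sided, the smallest possible. On the same scale the Krt1 to Krt10 ratio overlapped between groups, at 0.436 and 0.241 in Mi2 and 0.362 and 0.319 in WT. The Krt10 to Krt14 ratio was 0.0514 and 0.289 in Mi2, against 0.675 and 0.725 in WT.

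Krt8 and Krt18 had reads in both Mi2 libraries and none in either WT library. They are the type II and type I keratins of simple epithelia and of embryonic skin before it stratifies, and they are neighbours at the end of the chromosome 15 cluster, 23697 bases apart in the GENCODE annotation. Their promoters are shown because these genes had no WT read and the largest fitted rises of the family. Each is the 300 bases around the RefSeq start site in GRCm38.p6, at chr15:102004293-102004592 on the minus strand for Krt8 and chr15:102027966-102028265 on the plus strand for Krt18. Capitals mark TATAAA on either strand in Krt8, where a match on each strand overlaps, and the AP-2 motif GCCNNNGGC in Krt18.
Krt8: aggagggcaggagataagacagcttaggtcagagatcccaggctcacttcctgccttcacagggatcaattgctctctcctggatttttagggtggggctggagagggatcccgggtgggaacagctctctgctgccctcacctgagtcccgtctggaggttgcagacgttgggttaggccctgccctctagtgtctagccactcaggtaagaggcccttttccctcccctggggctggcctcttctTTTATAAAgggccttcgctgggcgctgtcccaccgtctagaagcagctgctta
Krt18: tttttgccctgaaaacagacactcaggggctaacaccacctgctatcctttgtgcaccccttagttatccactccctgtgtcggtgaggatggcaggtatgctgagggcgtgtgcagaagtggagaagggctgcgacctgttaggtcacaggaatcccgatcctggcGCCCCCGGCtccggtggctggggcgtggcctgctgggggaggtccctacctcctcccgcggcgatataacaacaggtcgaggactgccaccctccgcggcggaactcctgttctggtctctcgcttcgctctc

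Krt8 had 308 and 25.9 normalized reads in Mi2, against 0 in both WT libraries. That is at least 64.7-fold higher, taking 3 reads in each WT library as the floor (log2 change 6.51, SE 1.09, limma adjusted p = 0.00741). Krt18 had 389 and 50.4 normalized reads in Mi2, against 0 in both WT libraries, at least 85.2-fold higher (log2 change 7.15, SE 0.933, limma adjusted p = 0.00353). Both genes were higher in Mi2 replicate 1 than in Mi2 replicate 2, and the fitted log2 changes depend on the pseudocount. The Krt18 call held in all 12 alternative settings, with log2 changes of 5.68 without Mi2 replicate 1 and 8.61 without Mi2 replicate 2. Krt8 was called in the 11 settings that tested it and fell under the filter without Mi2 replicate 1. In Krt8, 26.9% of windows were shared with 1 other gene, the pseudogene Krt8-ps, and in Krt18 0.721% were shared with other genes.

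Krt19, a type I keratin of simple epithelia and follicle stem cells, had 117 and 5.45 normalized reads in Mi2, against 0 and 1.45 in WT. Almost all of its reads came from Mi2 replicate 1, and it was not called (log2 change 4.14, 95% interval 0.98 to 7.29, limma adjusted p = 0.0569). edgeR and DESeq2 called it higher, at log2 changes of 6.0 and 6.33, and the log2 change was 6.23 without Mi2 replicate 2. The ratio of its reads per unit of depth was 73.7, with a 95% counting interval of 19.8 to 618 around 2 WT reads. The remaining simple epithelial keratins were scarce, with 1 and 8 reads of Krt7 in Mi2 and 12 and 19 in WT, and 3 and 0 reads of Krt23 in Mi2 and 9 and 18 in WT. Krt20 had 0 reads in both Mi2 libraries, and 0 and 1 in WT.

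Krt8 and Krt18 also mark Merkel cells and glands, so the markers of those cells are given beside them. Of 5 Merkel cell markers, Atoh1, Isl1 and Sst had no read in any library, and the list summed to 21.2 and 9.54 normalized reads in Mi2 and 0 in both WT libraries. Chga had 15.9 and 9.54 normalized reads in Mi2 and Piezo2 had 5.31 and 0, and neither had a WT read. Of 5 eccrine and glandular markers all had reads, with sums of 641 and 503 in Mi2 and 453 and 523 in WT, mostly of Slc12a2 at 504 and 456 in Mi2 and 448 and 519 in WT. Wfdc2 in that list was called higher, at 123 and 35.4 normalized reads in Mi2, against 0 and 0.726 in WT (limma adjusted p = 0.00392). Aqp5 had 3.98 and 2.72 in Mi2 and 0 in both WT libraries, and Muc1 had 9.29 and 8.17 in Mi2, against 3.97 and 3.63 in WT. Cftr had 1 read, in WT replicate 1. The part of these cells in the Krt8 and Krt18 result was not tested.

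Hair keratins split by gene. Of 9 keratins of the inner root sheath and companion layer, 4 were tested, 2 rose and 1 fell. Of 14 hair shaft keratins, Krt32 alone was tested and it fell. The promoters of Krt32 and Krt73 are shown because they carry the largest fall and rise among the tested hair keratins. They lie at chr11:100088220-100088519 and chr15:101802311-101802610, both on the minus strand of GRCm38.p6, with capitals on TATAAA.
Krt32: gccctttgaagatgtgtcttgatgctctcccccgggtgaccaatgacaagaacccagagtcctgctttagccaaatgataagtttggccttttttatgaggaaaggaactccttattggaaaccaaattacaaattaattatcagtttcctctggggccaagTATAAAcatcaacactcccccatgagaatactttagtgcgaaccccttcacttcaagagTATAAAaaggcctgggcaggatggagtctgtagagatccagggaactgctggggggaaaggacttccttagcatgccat
Krt73: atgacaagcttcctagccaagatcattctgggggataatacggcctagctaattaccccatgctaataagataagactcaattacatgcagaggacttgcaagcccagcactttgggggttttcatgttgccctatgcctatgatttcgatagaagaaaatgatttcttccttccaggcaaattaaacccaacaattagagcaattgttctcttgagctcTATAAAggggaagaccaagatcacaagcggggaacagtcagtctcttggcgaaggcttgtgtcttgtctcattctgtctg

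Krt32, a type I keratin of the hair cuticle, had 1.33 and 6.81 normalized reads in Mi2, against 204 and 112 in WT. Both Mi2 values were near 0, and the call held in all 12 alternative settings (log2 change -5.16, SE 0.646, limma adjusted p = 0.00315). The other 13 hair shaft keratins had at most 4 reads in a library. Krt25, a type I keratin of the inner root sheath, had 10.6 and 16.3 normalized reads in Mi2, against 80.4 and 85.7 in WT (log2 change -2.56, SE 0.380, limma adjusted p = 0.00520).

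Krt73, a type II keratin of the inner root sheath cuticle, had 10.6 and 178 normalized reads in Mi2, against 0 in both WT libraries. Mi2 replicate 2 held most of its reads, opposite to Krt8 and Krt18, and the rise was at least 36.7-fold (log2 change 5.51, SE 1.24, limma adjusted p = 0.0185). Krt75, the type II keratin of the companion layer, had 65 and 32.7 normalized reads in Mi2, against 10.9 and 7.26 in WT (log2 change 2.25, SE 0.506, limma adjusted p = 0.0187). Without WT replicate 1 the calls for Krt25, Krt73 and Krt75 were lost, and without WT replicate 2 those for Krt25 and Krt75. Krt73 also lost its call with a pseudocount of 10, and without Mi2 replicate 2 it fell under the filter.

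Krt79, a keratin of the upper follicle and sebaceous duct, had 299 and 1530 normalized reads in Mi2, against 720 and 878 in WT. The Mi2 values lay on either side of WT (log2 change -0.23, 95% interval -1.78 to 1.31, limma adjusted p = 0.809). Its direction rested on the Mi2 library used: the log2 change was 0.94 without Mi2 replicate 1 and -1.41 without Mi2 replicate 2.

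The hair matrix and shaft markers that are not keratins summed to 1879 and 935 normalized reads in Mi2, against 291 and 335 in WT. Of 8 listed, 5 were tested, with Foxn1, Padi3 and Tchh higher and Msx2 lower, while Dsg4 and Shh had no read. Sebocyte markers summed to 4057 and 5416 in Mi2, against 1927 and 2671 in WT. Most of that sum was Scd1, at 2497 and 4152 in Mi2, against 1739 and 2428 in WT. Of 4 tested, Fabp5 and Mgst1 were called higher, while Scd1 and Plin2 were not called. Fabp5 had 1255 and 1058 in Mi2, against 68.5 and 73.3 in WT. Pparg, Awat2 and Elovl3 had at most 6 reads in a library. The part of follicle and sebaceous cells in the hair keratin results was not tested. Keratin-associated proteins, which embed the filaments of the hair shaft, had 2 reads in all over 48 genes.

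Among 34 keratins with a promoter in the RefSeq table, TATAAA occurred on either strand in 18, against 13.6% of 32851 promoters. Krt73 had it at position -30 and Krt32 at -88 and -29 from the start site. The overlapping matches in Krt8 lay at -3 and -1, and those of all keratins ranged from -206 in Krt84 to 20 in Krt42. The GC box GGGCGG occurred in 2 of 34 keratins, against 35.7% of all promoters, and the AP-2 motif in 5, against 16.6%. By the direction of change, TATAAA occurred in 3 of 5 keratins that rose and 2 of 4 that fell and have a promoter in the table. Guanine and cytosine made up 61.3% of the Krt18 promoter and 58.0% of the Krt8 promoter, against a median of 52.7% over all promoters. This was not particular to them. Krt7, which was not tested, had 66.3%, Krt79, which was not called, had 62.0%, and Krt78, which fell, had 58.3%. These are matches of letters in a window and say nothing of binding.

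Of 5 mucosal and corneal keratins, 2 were tested. Krt76, a type II keratin of the hard palate, had 25.2 and 13.6 normalized reads in Mi2, against 0.992 and 1.45 in WT. Its 3 WT reads give a ratio of 15.5, with a 95% counting interval of 4.80 to 79.5 (log2 change 3.15, SE 0.702, limma adjusted p = 0.0182). The call was lost without either WT library, and 6 other settings left Krt76 under the filter. Krt4, a keratin of the oral and oesophageal lining, had 23.9 and 12.3 normalized reads in Mi2 and 24.8 and 21.8 in WT, which overlapped (log2 change -0.42, 95% interval -1.56 to 0.72, limma adjusted p = 0.541).

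The 18 keratins with reads but under the filter had at most 19 reads in a library, too few for the test. Krt42 had 17 and 11 reads in Mi2, against 0 and 3 in WT, a ratio per unit of depth of 15 with a 95% counting interval of 4.62 to 76.9. Krt24 had 10 and 3 reads in Mi2 and 0 and 2 in WT, and Krt13, a mucosal keratin, had 9 and 3 in Mi2 and 1 and 2 in WT. Krt12, the corneal keratin, had none in Mi2 and 1 and 4 reads in WT. Counting intervals and floors cover counting error alone. A further count by group gave 8 keratins with reads in Mi2 libraries alone and 6 with reads in WT libraries alone. Among the former, Krt9, Krt27, Krt81, Krt84 and Krt86 had 1 read each, as did Krt20 and Krt28 among the latter. The same count was not made over all genes.

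The Mi2 libraries differed from each other more than the WT libraries did. Among tested keratins, 13 of 23 (56.5%) differed by over 2-fold between the Mi2 libraries, against 1 (4.35%) between the WT libraries. Over all genes tested these shares were 13.5% in Mi2 and 3.52% in WT. All 7 keratins called lower were lower in Mi2 replicate 1 than in Mi2 replicate 2, and 7 of 9 called higher were higher in Mi2 replicate 1. The same count was not made over all called genes, so it is not shown to be particular to keratins. Mi2 replicate 1 is also the library with 29.7% mitochondrial reads and the lower Chd4 level, and the part of these in the keratin results was not tested.

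**Figure D3:**
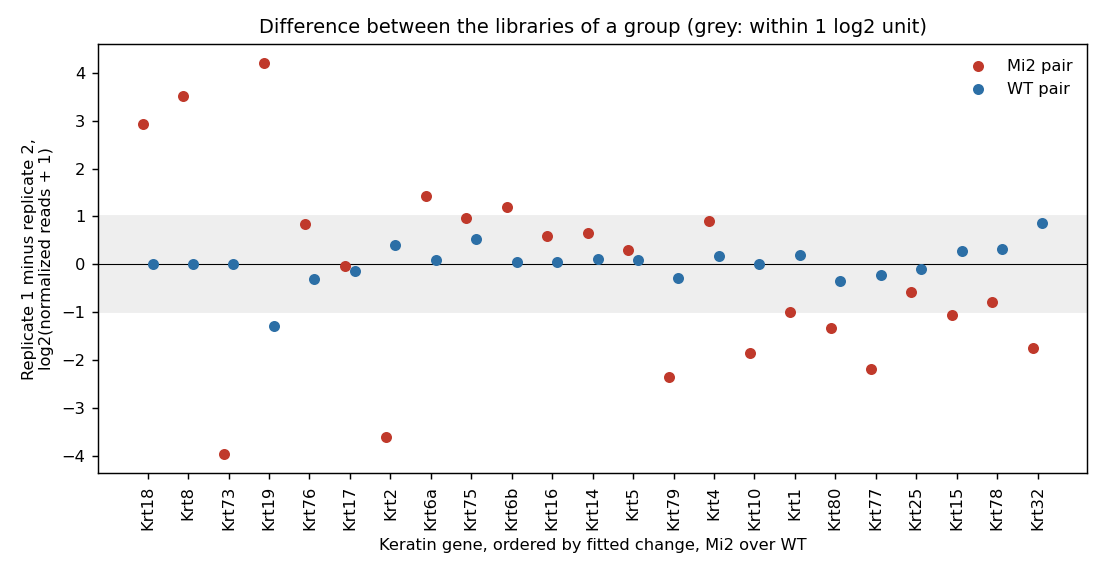
Replicate 1 minus replicate 2 within each group, as a difference of log2(normalized reads + 1), for the 23 tested keratins. Red points are the Mi2 pair and blue points the WT pair, and grey marks differences within 1 log2 unit. Krt8, Krt18 and Krt19 lie above the grey band and Krt2 and Krt73 below it in Mi2, while Krt17 lies near 0 in both pairs.

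The keratin genes lie in a cluster on chromosome 11, with 27 members, and another on chromosome 15, with 23 members, in the GENCODE annotation of GRCm38. Of 8 tested on chromosome 11, 2 rose and 3 fell, and of 15 on chromosome 15, 7 rose and 4 fell. Over all genes tested, 15.1% rose and 13.1% fell. Krt75, Krt6b and Krt6a lie next to one another and all rose, and Krt5, the next gene, was not called. Krt1 and Krt77 are neighbours and both fell, with Krt76, which rose, beside them. Krt78, which fell, is followed by Krt8 and Krt18, which rose. Krt16 and Krt17 are neighbours on chromosome 11 and both rose.

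**Figure D4:**
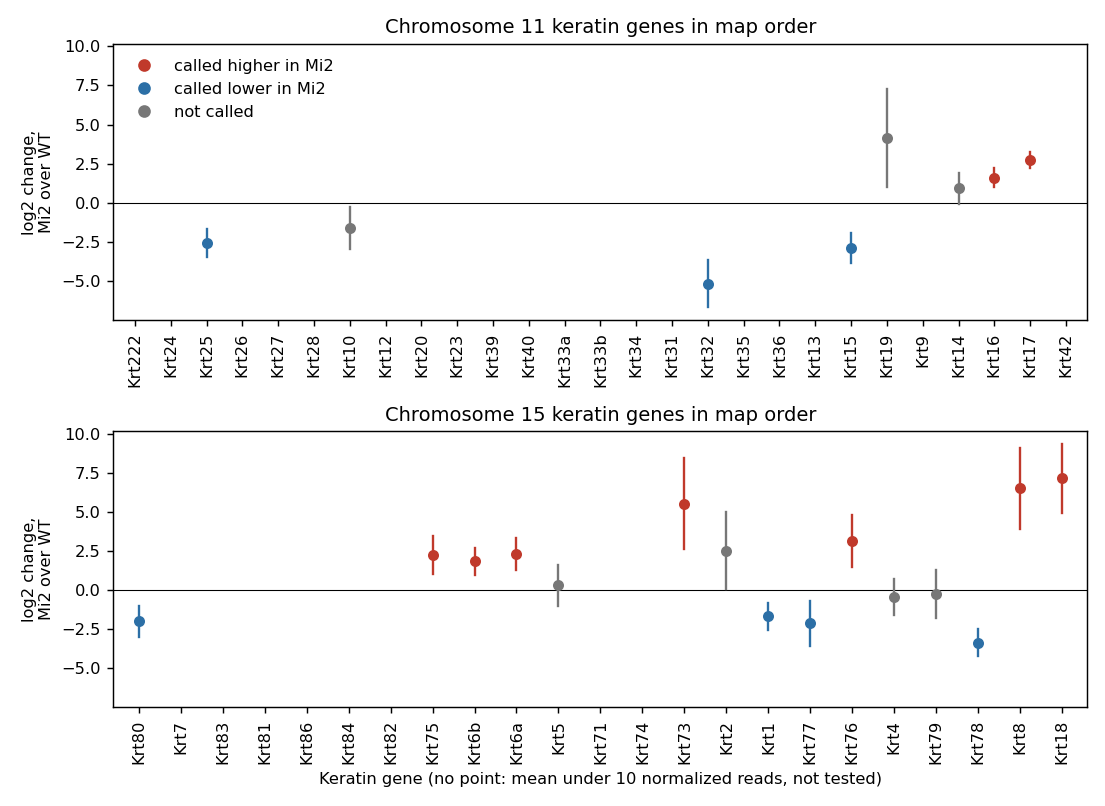
Fitted log2 change, Mi2 over WT, with its 95% interval for keratin genes in map order on chromosomes 11 and 15; genes without a point were not tested. On chromosome 15 rises and falls alternate in short runs, with Krt75, Krt6b and Krt6a up together and Krt1 and Krt77 down together.

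Genes that work with keratins were examined as lists. Of 12 tested genes that anchor or link the filaments to desmosomes and hemidesmosomes, none was called by limma or edgeR, and their median log2 change was 0.09. At an unadjusted p under 0.05, 1 was higher and 3 were lower. DESeq2 called 1 higher and 2 lower, and without Mi2 replicate 2 limma called 2 higher. Jup, a desmosomal plaque protein, had 14115 and 12175 normalized reads in Mi2, against 7593 and 7767 in WT (log2 change 0.77, limma adjusted p = 0.0585). Col17a1, a hemidesmosomal collagen, had 21051 and 17693 in Mi2, against 39120 and 37475 in WT (log2 change -0.99, limma adjusted p = 0.0613). With scaling that left out the 50 most abundant genes, or keratins and mitochondrial genes, Col17a1, Dst and Ppl were called lower.

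Of 5 tested proteins that bundle keratins or form the matrix around them, 2 rose and 2 fell, with a median log2 change of 1.48. Rises made up 15.1% and falls 13.1% over all genes tested. Flg, which bundles keratins in the outermost layers, had 25.2 and 28.6 normalized reads in Mi2, against 4.96 and 5.08 in WT (log2 change 2.21, limma adjusted p = 0.0195). Lor, a cornified envelope protein, had 27.9 and 36.8 in Mi2, against 122 and 76.2 in WT (log2 change -1.56, limma adjusted p = 0.0198). Flg2, a relative of Flg, had 3.98 and 8.17 in Mi2, against 37.7 and 26.1 in WT (log2 change -2.26, limma adjusted p = 0.0236). Flg rose while Flg2 and Lor fell, and all 3 belong to the cornified layers. Tchh, which hardens the inner root sheath, had 714 and 174 in Mi2, against 59.5 and 75.5 in WT (log2 change 2.38, limma adjusted p = 0.0251). None of these 4 calls held without WT replicate 1. Those for Flg, Flg2 and Lor were also lost without WT replicate 2, and that for Lor without Mi2 replicate 1. DESeq2 did not call Flg or Flg2, and without the filter on low values Tchh was not called.

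Of 26 tested transcription factors known to act on keratin genes, 10 rose, 5 fell and 11 were not called, with a median log2 change of 0.40. Of all genes tested, 15.1% rose and 13.1% fell. Dlx3, a homeodomain factor of differentiating epidermis and hair, had 304 and 264 normalized reads in Mi2, against 20.8 and 19.6 in WT (log2 change 3.74, limma adjusted p = 7.5e-04). Foxq1, a forkhead factor of the hair medulla, had 29.2 and 51.8 in Mi2, against 841 and 722 in WT (log2 change -4.29, limma adjusted p = 7.5e-04). Gata3, a factor of the inner root sheath and epidermal barrier, had 2185 and 3186 in Mi2, against 6873 and 7604 in WT (log2 change -1.45, limma adjusted p = 0.00860). These 3 calls held in all 12 alternative settings, while the list fell to 4 rises and 2 falls without WT replicate 1 and to 6 and 2 without WT replicate 2.

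Of 7 tested intermediate filament genes that are not keratins, 3 rose, against 15.1% of all genes tested, and the median log2 change was 0.49. Nes, the filament protein of neural and follicle progenitors, had 541 and 266 normalized reads in Mi2, against 3.97 and 0.726 in WT (log2 change 7.02, limma adjusted p = 9.1e-04). Ina, a neuronal filament protein, had 37.2 and 19.1 in Mi2 and 0 in both WT libraries, at least 10.9-fold higher (log2 change 4.79, limma adjusted p = 0.00631). Vim, the mesenchymal filament protein, had 147 and 45.0 in Mi2 and 80.4 and 83.5 in WT, which overlapped. Of 11 tested genes of keratin turnover, 2 rose, against 15.1% of all genes tested, and the median log2 change was 0.21. DESeq2 called 4 higher, limma without Mi2 replicate 2 called 4 higher and 1 lower, and without WT replicate 1 it called 1 higher. Sfn, a 14-3-3 protein that binds keratins, had 13845 and 8492 in Mi2, against 3004 and 3554 in WT (log2 change 1.73, limma adjusted p = 0.00780).

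Lists for other cells that a sort might hold were also summed. Fibroblast markers gave 1709 and 820 normalized reads in Mi2, against 443 and 187 in WT, and Thy1 alone, which T cells share, gave 1631 and 812 in Mi2, against 265 and 151 in WT. The other 3 tested fibroblast markers, all collagens, had negative log2 changes and were not called, with Col1a1 at 18.6 and 4.09 in Mi2, against 72.4 and 12.3 in WT. Langerhans and dendritic cell markers gave 1519 and 1864 in Mi2, against 564 and 600 in WT. Most of that sum was Epcam, also a keratinocyte marker, at 1095 and 1053 in Mi2, against 299 and 340 in WT. Cd74 in that list was called higher, at 337 and 666 in Mi2, against 169 and 181 in WT (limma adjusted p = 0.0192). H2-Ab1 overlapped, at 79.6 and 127 in Mi2 and 81.4 and 77.0 in WT. Cd207, which defines Langerhans cells, overlapped, at 3.98 and 15 in Mi2 and 14.9 and 1.45 in WT. Erythroid markers gave 183 and 326 in Mi2, against 743 and 2367 in WT. T lymphocyte markers gave 1631 and 816 in Mi2, against 277 and 159 in WT, nearly all of Thy1. Endothelial markers gave 9.29 and 4.09 in Mi2 and 0 in both WT libraries. Melanocyte markers gave 135 and 120 in Mi2, against 207 and 264 in WT. Mitf among them was called lower, at 7.96 and 6.81 in Mi2, against 76.4 and 96.6 in WT (limma adjusted p = 0.00248). Pmel overlapped. Macrophage and neutrophil markers gave 77.0 and 83.1 in Mi2, against 57.6 and 266 in WT, with Lyz2 at 182 in WT replicate 2. Muscle markers gave 61.0 and 70.8 in Mi2, against 34.7 and 31.9 in WT. The part of these cells in the keratin results was not tested.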

How the data were processed

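RNA sequencing libraries of sorted keratinocytes (2 Mi2, 2 WT) were analysed. The deposited signal is a normalized read count for which the authors scaled each library by its own factor. Dividing by the step for 1 read gave whole reads, within 0.05, for every value. The submitters' processing notes list bcl2fastq 1.8.3, STAR, DESeq2, mm9 and mm10. The counting program, strand setting and annotation were not given in the sources used here. The design allowed for raw counts or normalized values, and the test for normalized values was used.

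In R 4.3.3, log2(value + 1) was fitted with limma 3.58.1, with a trend in the variance. The pseudocount understates changes of low genes. Genes with a mean under 10 normalized reads were left out, and all p-values are two-sided. edgeR 4.0.16 and DESeq2 1.42.0 on recovered reads, other scalings, a pseudocount of 10, no filter, a replicate block and leaving out each library were alternatives.

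Positions and exon lengths come from GENCODE M21, in which all 50 genes were found, and promoters from RefSeq (GRCm38.p6). The members and gene lists were chosen with earlier results of these data known. Named list genes are up to 4 with the smallest p, and keratins with a mean of at least 20 are given in full. Krt76, Gm11597, Vim, Wfdc2, Aqp5, Muc1, Cftr, Chga, Piezo2, Mitf, Pmel, Lyz2 and keratins under the filter were named after their values were seen. A gene that this rule names is not reported here.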

Additional observations from a re-analysis of the deposited data

How the results depend on the processing

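Of 16 called keratins, 9 were called in the same direction in all 12 alternative settings: Krt15, Krt16, Krt17, Krt18, Krt32, Krt6a, Krt6b, Krt78 and Krt80. Leaving out 1 library gave between 6 and 9 keratin rises and between 4 and 9 falls, the fewest falls without WT replicate 1, and between 1113 and 5815 called genes in all, the fewest without WT replicate 1. Without a WT library only the Mi2 pair sets the spread, and without a Mi2 library only the closer WT pair does. Calls without a Mi2 library therefore take no account of the difference between the Mi2 libraries. The difference in keratin share was -0.538 percentage points with mitochondrial reads left out of the total. Krt79 reversed to a log2 change of 0.21 with edgeR and 0.20 with DESeq2, and ranged from -1.41 to 0.94 with 1 library left out; Krt4 ranged from -0.87 to 0.037, reversed without Mi2 replicate 2. The cause was not tested. Of 87 keratin changes with 1 library left out, 71 kept their direction and call, 10 lost the call, 4 gained one and 2 reversed; of 180 under the other settings these numbers were 164, 5, 9 and 2. Scaling without keratins and mitochondrial genes moved the median log2 change of all genes from -0.03 to -0.27 and gave 1522 rises and 2788 falls among all genes, against 2185 and 1900 as reported. No tested keratin changed direction with scaling alone.

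Libraries share replicate numbers, but nothing ties equal numbers to a shared mouse or batch, and the deviations of same-numbered libraries correlated at 0.123 over only 2 pairs. With the replicate number as a block, 11 keratins were called higher and 8 lower, and 5170 genes were called in all; Krt10 (lower), Krt2 and Krt19 (higher) gained a call. Depth limits the 18 keratins under the filter.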
